A study of Mus musculus with 27 samples.

Results

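The Neu sialidases are 4 mouse genes, Neu1, Neu2, Neu3 and Neu4, taken by symbol from the 55487 genes in the count table of this retina study, and all 4 were in it. Sialidases, also called neuraminidases, remove terminal sialic acid from glycoproteins and glycolipids, so they act against the sialyltransferases that add it. Neu1 is the lysosomal enzyme and works in a complex with the protective protein cathepsin A (Ctsa) and beta-galactosidase (Glb1). Neu2 is the cytosolic sialidase, best known from muscle. Neu3 sits at the plasma membrane and acts mainly on gangliosides, the sialylated glycolipids that are abundant in neurons. Neu4 acts in lysosomes and other internal membranes and is known from brain.

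Whole retinas of 27 mice aged 9 months were read by QuantSeq, a 3′ mRNA kit that counts tags near the ends of transcripts. The wildtype mice carried both copies of Gne and C3 (Gne+/+, C3+/+; 7 mice), the Gne+/- mice carried 1 copy of Gne and both of C3 (7 mice), the C3-/- mice carried both copies of Gne and none of C3 (7 mice), and the Gne+/- C3-/- mice combined both changes (6 mice). The Gne protein catalyses the opening steps by which cells make sialic acid, and C3 is the hub protein of complement. The design asks what lower sialylation does to the retina and whether complement is needed for it. The Gne deletion is heterozygous, so a copy of the gene remains, and the positions of the deleted parts of Gne and C3 are not given in the sources used here. Each library is labelled as a separate mouse. Sequencing run 1 held 5 wildtype, 5 Gne+/-, 4 C3-/- and 4 Gne+/- C3-/- libraries, and run 2 held 2, 2, 3 and 2. Different mice were in the 2 runs, so run and mice cannot be told apart.

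Total counts ranged from 13.5 to 34.2 M per library, and levels are given as CPM, counts scaled to library totals adjusted by TMM factors. Gne fell by 1.58 on the log2 scale in the heterozygous mice averaged over both C3 genotypes (SE 0.0951, edgeR adjusted p = 2.2e-13). The rod photoreceptor markers Gnat1, at 6120 ± 1720 CPM in run 1 (SD, n = 18) and 5200 ± 1050 CPM in run 2 (n = 9), and Sag, at 2840 ± 656 and 3290 ± 321 CPM, were abundant, so defining markers of the labelled tissue were present. The sum of the 6 listed rod markers was 42700 to 70900 CPM in run 1 and 24000 to 31200 CPM in run 2. Of these 6, 3 were lower in run 2 past the edgeR threshold and 0 were higher (median log2 difference -0.713). Among all tested genes, 29.2% were lower and 30.3% higher by the same rule. In whole tissue, fewer cells of a type and less RNA per cell cannot be told apart. The summed level of 4 Y-linked genes was 0.396 to 1.62 CPM in wildtype and 471 to 583 CPM in C3-/- libraries of run 1, and 289 to 327 CPM in wildtype and 0.551 to 2.71 CPM in C3-/- libraries of run 2. Wildtype and C3-/- mice thus differed in this sum within each run, in opposite directions. Within a run, C3 genotype and sex, which Y-linked genes mark, therefore cannot be told apart between these 2 groups. The sum was 0.0508 to 627 CPM in Gne+/- and 0.565 to 591 CPM in Gne+/- C3-/- libraries of run 1, and 321 to 339 and 246 to 283 CPM in run 2.

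Neu1 (ENSMUSG00000007038) was counted over chr17:34931253-34935953 on the forward strand. Neu2 (ENSMUSG00000079434) was counted over chr1:87509889-87597845, forward strand. Neu3 (ENSMUSG00000035239) lies at chr7:99811439-99828417 on the reverse strand, and Neu4 (ENSMUSG00000034000) at chr1:94020451-94028334 on the forward strand, all in GRCm38. No annotated gene overlapped the spans of Neu1, Neu3 or Neu4. Of the Neu2 span, 72.7% was covered by other annotated genes, almost all of it by Ngef on the opposite strand (63982 bases). Reads in that stretch were left out of both genes by the counting, while the 3′ end of Neu2, where tags of this kit fall, was free of overlap. The RefSeq model of Neu1 ends 1344 bases beyond the counted end, so tags at that further end were not counted for Neu1. The RefSeq ends of Neu2 and Neu4 equalled the counted ends, and that of Neu3 differed by 5 bases.

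The promoters of the 2 well detected members and of the undetected Neu4 are shown because they differ in CpG content. Each is the RefSeq (GRCm38.p6) sequence from 250 bases before to 50 bases after the gene's start, 5′ to 3′ on the gene's strand, with CpG dinucleotides in capitals. For Neu3 that start is position 99828417, where its counted span starts, whereas the whole RefSeq span of Neu3 starts at 99828457. The positions are chr17:34931003-34931302 for Neu1 (forward), chr7:99828368-99828667 for Neu3 (reverse) and chr1:94020243-94020542 for Neu4 (forward).
Neu1: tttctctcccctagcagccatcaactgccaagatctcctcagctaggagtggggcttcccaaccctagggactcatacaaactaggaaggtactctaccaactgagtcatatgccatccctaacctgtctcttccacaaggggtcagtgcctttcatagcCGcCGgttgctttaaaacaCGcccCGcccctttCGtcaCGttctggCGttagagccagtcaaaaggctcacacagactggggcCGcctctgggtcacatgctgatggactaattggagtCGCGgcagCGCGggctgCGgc
Neu3: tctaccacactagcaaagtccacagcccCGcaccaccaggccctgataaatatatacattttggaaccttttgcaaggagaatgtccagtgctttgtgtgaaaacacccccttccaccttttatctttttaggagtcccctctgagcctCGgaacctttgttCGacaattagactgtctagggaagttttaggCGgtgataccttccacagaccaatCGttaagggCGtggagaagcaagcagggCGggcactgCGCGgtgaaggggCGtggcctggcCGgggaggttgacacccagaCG
Neu4: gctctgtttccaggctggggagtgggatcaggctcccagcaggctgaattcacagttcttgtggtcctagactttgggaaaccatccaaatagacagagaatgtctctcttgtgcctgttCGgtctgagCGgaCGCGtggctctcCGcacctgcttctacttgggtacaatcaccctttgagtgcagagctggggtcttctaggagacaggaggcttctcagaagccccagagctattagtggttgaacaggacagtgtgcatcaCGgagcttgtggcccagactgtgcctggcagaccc

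The Neu1 promoter held 13 CpG dinucleotides and that of Neu3 held 12. The Neu4 promoter held 6, and the 3 RefSeq promoters of Neu2 held 2, 5 and 2. Over all 32851 promoters of this length the median was 7. For genes that passed the filter on low counts the median was 18 (15877 promoters), and for genes at 0 in all libraries it was 3 (3712 promoters). Thus 37.9% of all promoters held at least as many CpG dinucleotides as Neu1, 39.6% as many as Neu3 and 56.4% as many as Neu4. The letters GGGCGG, which contain a CpG, were found on either strand in the Neu1 and Neu3 promoters and in none of those of Neu2 and Neu4, against 35.7% of all promoters. CCAAT was in the Neu1 and Neu3 promoters and in 1 of the 3 Neu2 promoters, against 37.4% of all. TATAAA was in 1 Neu2 promoter, against 13.6% of all. CACGTG, the core of the motif read by the lysosomal gene regulator Tfeb, was in none of these windows and in 7.15% of all promoters. These letter matches are descriptions of the windows only.

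Neu1 was the most abundant sialidase transcript in this retina, Neu3 came next, Neu2 was at the edge of detection and Neu4 was not detected. Mean levels over the 27 libraries were 26.1 CPM for Neu1, 6.49 CPM for Neu3 and 0.525 CPM for Neu2. Per kilobase of counted span, the mean levels were 5.55 CPM for Neu1, 0.383 CPM for Neu3 and 0.00596 CPM for Neu2, the same order. Because this kit reads transcript ends, a level per length lowers a gene with long introns, and both scales are therefore given. In all libraries together, 14883 counts fell on Neu1, 3027 on Neu3, 267 on Neu2 and 0 on Neu4. Of the 4 members, 3 passed the filter on low counts and were tested, and Neu4 was not.

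Neu4, the sialidase known from brain, had 0 counts in 27 of 27 libraries of all 4 genotypes. A count of 0 among 509.8 M allows a level of up to 0.00588 CPM (3 counts over all libraries). In single libraries it allows 0.0878 to 0.222 CPM. These limits cover counting error only.

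Neu1, which strips sialic acid in lysosomes, was counted in every library, with 143 to 449 counts in run 1 and 561 to 1807 in run 2. Of the run 1 wildtype mice, numbers 1, 2, 4, 5 and 6 had 11.9, 16.1, 16.2, 12.1 and 9.88 CPM. Gne+/- mice 1 to 5 measured 23.5, 21.7, 20.3, 20.2 and 7.26 CPM. Of these 5, 4 lay above every wildtype library and mouse 5 lay below every one. In C3-/- mice 1, 2, 5 and 6 the level was 24.8, 17.8, 20.4 and 13.7 CPM, and 3 of the 4 lay above every wildtype library. In Gne+/- C3-/- mice 3 to 6 it was 17.4, 17.0, 19.1 and 13.5 CPM. These lay within the range of the Gne+/- group only because of its mouse 5, and below its mice 1 to 4. Wildtype mice thus averaged 13.2 ± 2.81 CPM (SD, n = 5) in run 1. Gne+/- mice averaged 18.6 ± 6.46 (n = 5), C3-/- mice 19.2 ± 4.64 (n = 4) and Gne+/- C3-/- mice 16.7 ± 2.31 CPM (n = 4).

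Run 2 gave another order of genotypes for Neu1. Wildtype mice 7 and 8 measured 51.5 and 46.4 CPM. Gne+/- mice 7 and 8 measured 47.8 and 65.3 CPM, the first of them between the wildtype values. The C3-/- mice 7, 8 and 9, at 38.4, 44.4 and 33.1 CPM, all lay below both wildtype mice, as 9.99% of all tested genes did. Gne+/- C3-/- mice 7 and 8, at 36.0 and 38.3 CPM, lay below both Gne+/- mice, as 18.5% of all tested genes did, and within the C3-/- range. Wildtype averaged 48.9 ± 3.6 CPM (SD, n = 2), Gne+/- 56.5 ± 12.4 (n = 2), C3-/- 38.6 ± 5.68 (n = 3) and Gne+/- C3-/- 37.1 ± 1.66 CPM (n = 2). From low to high, the order was wildtype, Gne+/- C3-/-, Gne+/-, C3-/- in run 1 and Gne+/- C3-/-, C3-/-, wildtype, Gne+/- in run 2. In run 1 each neighbouring pair in that order had overlapping ranges. In run 2 the C3-/- and wildtype ranges did not overlap, and the other neighbouring pairs did.

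**Figure D1:**
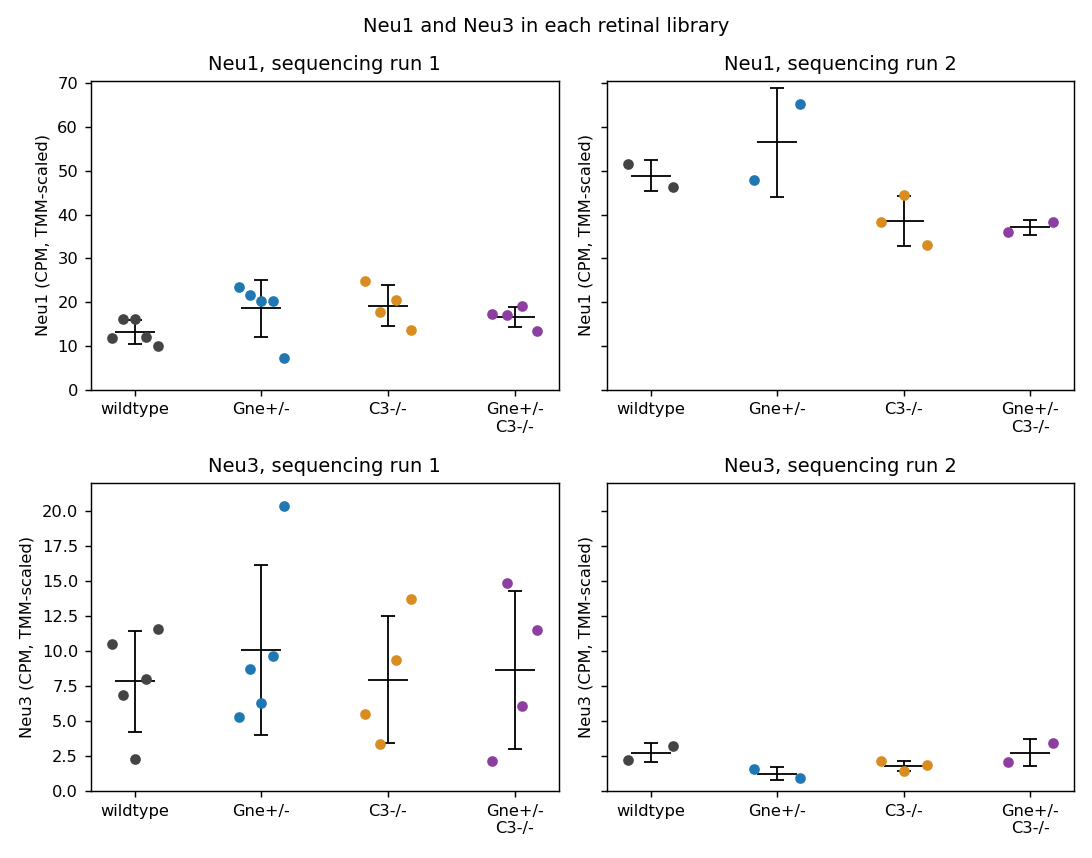
Levels of Neu1 (top) and Neu3 (bottom) in CPM on library sizes scaled by trimmed mean of M-values (TMM), for each library by genotype, in sequencing run 1 (left) and run 2 (right). Points are libraries, and black marks and bars are means and SD. Neu1 lay between 7.26 and 24.8 CPM in run 1 and between 33.1 and 65.3 CPM in run 2, whereas Neu3 reached 20.4 CPM in run 1 and at most 3.47 CPM in run 2.

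Neu3, the ganglioside sialidase of the plasma membrane, was also counted in every library, with 36 to 402 counts in run 1 and 26 to 89 in run 2. Wildtype mice 1, 2, 4, 5 and 6 of run 1 had 10.5, 6.9, 2.32, 8.04 and 11.6 CPM. Gne+/- mice 1 to 5 had 5.31, 8.73, 6.3, 9.67 and 20.4 CPM. Mouse 5 alone lay above every wildtype library, and it was the same mouse that was lowest in Neu1. C3-/- mice 1, 2, 5 and 6 had 5.52, 3.37, 9.36 and 13.7 CPM of Neu3. Gne+/- C3-/- mice 3 to 6 had 2.18, 14.9, 6.12 and 11.5 CPM. The 4 genotype ranges overlapped throughout. From low to high, wildtype averaged 7.86 ± 3.61 CPM (SD, n = 5), C3-/- 7.97 ± 4.52 (n = 4), Gne+/- C3-/- 8.66 ± 5.62 (n = 4) and Gne+/- 10.1 ± 6.04 CPM (n = 5), and no neighbours in that order differed beyond their spread.

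In run 2, wildtype mice 7 and 8 had Neu3 levels of 2.27 and 3.25 CPM. Gne+/- mice 7 and 8 had 1.6 and 0.94 CPM, C3-/- mice 7 to 9 had 2.15, 1.46 and 1.89 CPM, and Gne+/- C3-/- mice 7 and 8 had 2.07 and 3.47 CPM. Both Gne+/- libraries lay below both wildtype libraries, as did 15.3% of all tested genes, and all 3 C3-/- libraries did so too, as did 9.99% of all. No run 2 library held more than 89 counts of Neu3. Gne+/- averaged 1.27 ± 0.466 CPM (SD, n = 2), C3-/- 1.83 ± 0.349 (n = 3), wildtype 2.76 ± 0.694 (n = 2) and Gne+/- C3-/- 2.77 ± 0.991 CPM (n = 2). Gne+/- mice thus had the highest mean of Neu3 in run 1 and the lowest in run 2.

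Neu2, the cytosolic sialidase, had counts in 15 of 27 libraries, with no genotype order shared by the runs. Its raw counts were 24, 7, 0, 3 and 0 in wildtype mice 1, 2, 4, 5 and 6, and 0 in wildtype mice 7 and 8. The 5 Gne+/- libraries of run 1 had 0 counts each, while Gne+/- mice 7 and 8 of run 2 had 43 and 27. C3-/- mice 1, 2, 5 and 6 had 27, 0, 5 and 45 counts, and C3-/- mice 7, 8 and 9 had 0, 18 and 0. Gne+/- C3-/- mice 3 to 8 had 18, 24, 11, 2, 4 and 9 counts, and these were the only mice with a Neu2 count in every library. Since whole groups were at 0, fitted differences of Neu2 within a run are not read as sizes.

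The comparison of Gne+/- with wildtype mice asks whether a lower capacity to make sialic acid goes with a change in the enzymes that remove it. Of the 3 tested members, 0 passed the edgeR threshold (adjusted p under 0.05 over 17409 genes), where 0.00574% of all tested genes, Gne alone, were called. Neu1 had the largest difference relative to its error, with a log2 fold change of 0.39 (SE 0.21, 95% interval -0.03 to 0.82, unadjusted p = 0.0704, edgeR adjusted p = 0.86). That is 1.31-fold, with an interval from 0.976 to 1.76. Within the runs the log2 difference was 0.52 (run 1 alone, adjusted p = 0.945, edgeR) and 0.23 (run 2 alone, adjusted p = 0.882, edgeR). Without Gne+/- mouse 5 it was 0.53 (unadjusted p = 0.00573, edgeR adjusted p = 0.307). Neu3 differed by -0.01 (SE 0.391, interval -0.81 to 0.78, edgeR adjusted p = 0.997), with 0.38 in run 1 alone and -1.11 in run 2 alone. Without mouse 5 the Neu3 value was -0.37. Neu2 had a log2 difference of 0.79 with an SE of 2.08 (edgeR adjusted p = 0.971).

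Lens transcripts varied widely between libraries. The summed level of the lens marker list was 121 to 1680 CPM in Gne+/- and 0.284 to 164 CPM in wildtype libraries of run 1, and 4.05 to 5.53 and 4.61 to 17.6 CPM in run 2, with overlapping ranges in both runs. In C3-/- and Gne+/- C3-/- libraries it was 1.28 to 119 and 4.22 to 162 CPM in run 1, and 4.84 to 25.5 and 3.82 to 70.6 CPM in run 2. All 9 tested lens markers of 11 had a higher fitted value in Gne+/- mice (median log2 difference 3.63, against 0.01 over all tested genes), 0 of them past the threshold. Cryba1 was listed at 0, and its whole span is covered by other genes. Across the 18 libraries of run 1, the lens sum and Neu1 had a Pearson r of 0.26 (permutation p = 0.298, adjusted p = 0.466 over 25 pairs; Spearman coefficient 0.253, permutation p = 0.31, adjusted 0.484), and 0.395 without the 2 libraries farthest from the median. The 4 Y-linked genes also had higher fitted values in Gne+/- mice (median log2 difference 2.23, 0 past the threshold). With the Y-linked level as a covariate the Neu1 difference was 0.30 (edgeR adjusted p = 0.94). The part of lens transcripts in the Neu1 result was not tested beyond this correlation.

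The same Gne change on the C3-/- background gave no call among the 3 members either, where 0.00574% of all genes were called. Neu1 differed by -0.12 (SE 0.219, 95% interval -0.56 to 0.33) and Neu3 by 0.30 (SE 0.428, interval -0.57 to 1.17) between Gne+/- C3-/- and C3-/- mice, both with an edgeR adjusted p of 1.0. Averaged over both C3 genotypes, the Gne effect was 0.14 for Neu1 (interval -0.17 to 0.45) and 0.14 for Neu3 (interval -0.46 to 0.75), with 0.00574% of all genes called. The interval for Neu1 spans 0.888- to 1.36-fold, and that for Neu3 0.725- to 1.68-fold. The difference between the 2 Gne effects (the interaction) was -0.51 for Neu1 (SE 0.303, interval -1.13 to 0.11, unadjusted p = 0.101, edgeR adjusted p = 1.0) and 0.31 for Neu3 (SE 0.592), in a comparison with 0% of genes called. These comparisons share libraries and are not independent of each other.

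Loss of C3 likewise left all 3 tested members short of the threshold. Between C3-/- and wildtype mice, where 0.167% of all genes were called, Neu1 differed by 0.22 (SE 0.21, interval -0.21 to 0.65, edgeR adjusted p = 0.999) and Neu3 by -0.18 (SE 0.411, interval -1.02 to 0.66, edgeR adjusted p = 0.999). Between Gne+/- C3-/- and Gne+/- mice, where 0.19% were called, Neu1 differed by -0.29 (SE 0.219, edgeR adjusted p = 0.862) and Neu3 by 0.13 (SE 0.429, edgeR adjusted p = 0.979). That Neu1 difference was -0.17 in run 1 alone and -0.61 in run 2 alone (unadjusted p = 0.0137, edgeR adjusted p = 0.826). Without Gne+/- mouse 5 it was -0.44. Averaged over both Gne genotypes, where 0.569% were called, the C3 effect was -0.04 for Neu1 (interval -0.34 to 0.27) and -0.03 for Neu3 (interval -0.64 to 0.58). Neu2 had 1.10 with an interval from -1.21 to 3.40.

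The near-zero averaged C3 effect on Neu1 joined opposite values in the 2 runs. It was 0.18 in run 1 alone (SE 0.21, unadjusted p = 0.41, edgeR adjusted p = 0.903) and -0.47 in run 2 alone (SE 0.157, unadjusted p = 0.00562, edgeR adjusted p = 0.551). For C3-/- against wildtype the Neu1 values were 0.53 and -0.33 in the 2 runs. The Y-linked sums given above also switched between wildtype and C3-/- mice, so within a run C3 genotype and sex cannot be told apart in that comparison. With the Y-linked level as a covariate, the averaged C3 effect on Neu1 was -0.09 (edgeR adjusted p = 0.924). The difference between the runs was not tested. Across all 7 genotype comparisons, DESeq2 and limma-voom also called 0 of the 3 members. At an unadjusted p under 0.05, edgeR and DESeq2 had 0 members in each of the 7 comparisons, where edgeR had 5.76% of all genes (Gne+/- against wildtype), 1.35% (Gne+/- C3-/- against C3-/-), 4.49% (C3-/- against wildtype), 6.4% (double mutant against Gne+/-), 3.3% and 7.67% (averaged Gne and C3 effects) and 3.18% (interaction). By the same rule limma-voom had Neu2 in 2 of them (the averaged C3 effect and Gne+/- C3-/- against Gne+/-).

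**Figure D2:**
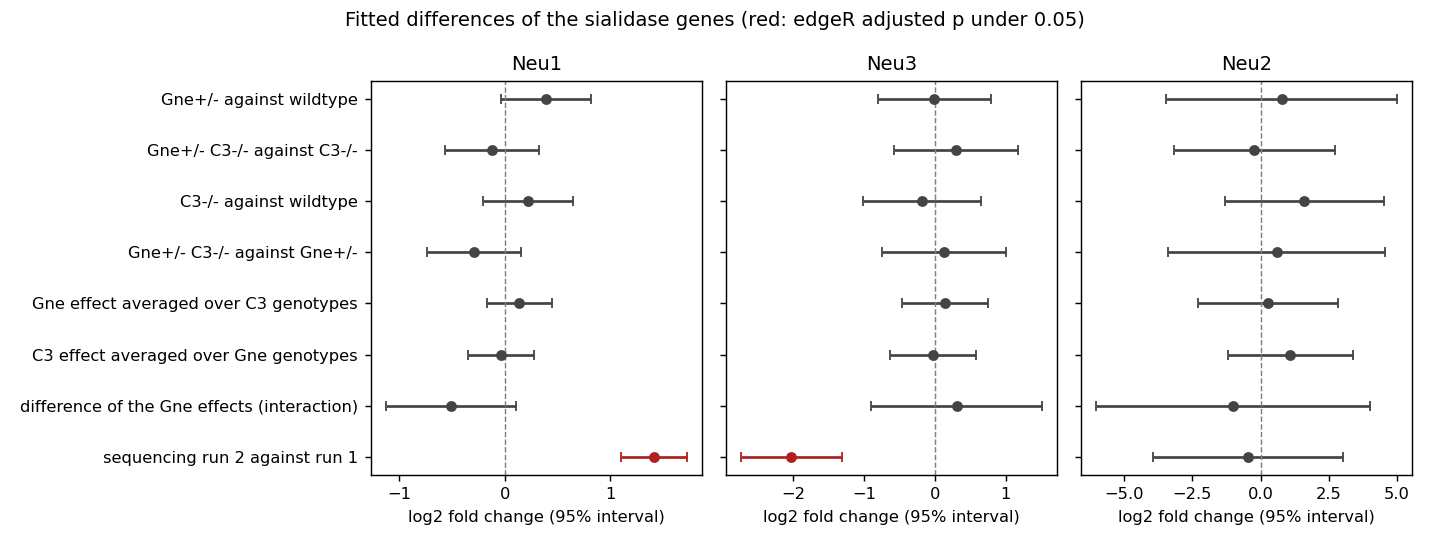
Fitted log2 fold changes of Neu1, Neu3 and Neu2 (horizontal axes, each with its own scale) with 95% intervals, for 7 genotype comparisons and for sequencing run 2 against run 1. Every genotype interval includes 0, and the run difference is 1.41 for Neu1 and -2.02 for Neu3.

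The 2 well detected sialidases differed between the runs by more than in any of the 7 fitted genotype comparisons, and in opposite directions. Neu1 was 2.66-fold higher in run 2 (95% interval 2.14 to 3.31, log2 difference 1.41, SE 0.154, edgeR adjusted p = 1.07e-09, n = 9 and 18). Its lowest run 2 library, at 33.1 CPM, lay above its highest run 1 library, at 24.8 CPM, as was so for 11.3% of all tested genes. Neu3 was 4.07-fold lower in run 2 (interval 2.48 to 6.67, log2 difference -2.02, SE 0.351, edgeR adjusted p = 6.7e-06). The runs overlapped for Neu3, between 2.18 and 3.47 CPM. Neu2 differed by -0.46 (SE 1.71, edgeR adjusted p = 0.832). The 2 of 3 members called stand beside 59.5% of all tested genes called in this contrast, 30.3% higher and 29.2% lower, so a difference between runs is common in these data. The log2 difference of Neu1 was above that of 84.0% of tested genes, and that of Neu3 was below that of 93.8%.

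As a result, counted tags of Neu1 relative to those of Neu3 differed by run. Such counts do not measure protein or enzyme activity. The ratio of Neu1 to Neu3 CPM ranged from 0.356 to 7.98 in run 1 (median 2.25, 18 libraries) and from 11 to 69.5 in run 2 (median 17.9, 9 libraries), with no overlap. Neu1 lay below Neu3 in 2 libraries, wildtype mouse 6 and Gne+/- mouse 5, both of run 1. C3-/- mouse 6 had nearly equal levels, 13.7 CPM of each on the rounded scale.

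Within run 1, libraries with more Neu3 tended to have less Neu1. Pearson's r was -0.497 over 18 libraries (permutation p = 0.0345, adjusted p = 0.216 over 25 pairs) and Spearman's coefficient was -0.534 (permutation p = 0.0251, adjusted p = 0.211). Without the 2 libraries farthest from the median Neu1 level, r was -0.258. Leaving out libraries by their Neu1 level also narrows its range, so this drop cannot show whether the relation rests on them. With each genotype centred on its mean, r was -0.601, and over the 9 libraries of run 2 it was -0.519. Levels in CPM share a library total. Of the 25 pairs of Neu1 or Neu3 with each other, a marker sum or depth, 0 passed the adjustment. The pair with the smallest p was Neu1 with the bipolar cell marker sum, with r = -0.633 (permutation p = 0.00411, adjusted p = 0.103), a Spearman coefficient of -0.647 (permutation p = 0.00491, adjusted p = 0.123) and r = -0.548 without the 2 farthest libraries.

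**Figure D3:**
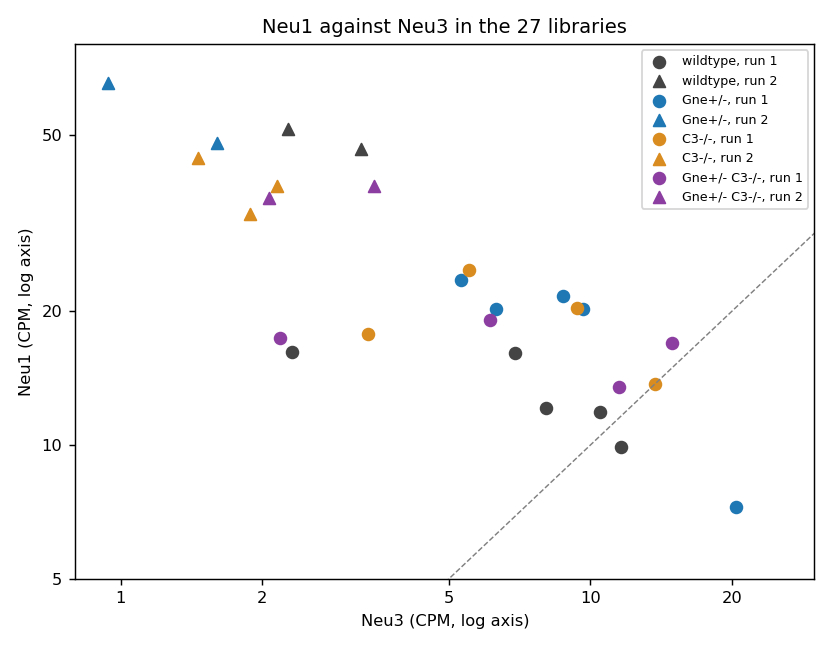
Neu1 against Neu3 in each of the 27 libraries, in CPM on log axes, coloured by genotype (circles run 1, triangles run 2). The dashed line marks equal levels. The 9 libraries of run 2 sit at the upper left, with ratios of 11 to 69.5, and the 18 of run 1 spread along a falling band that reaches the line of equal levels.

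The genes whose levels followed each member most closely were ranked by Pearson's r of run-centred log2 CPM over 27 libraries among 17409 genes, and values at the top of such a ranking are high by selection. For Neu1 they were Atxn7l3b (r = 0.805), Commd2 (0.799), Slc25a28 (0.798), Mpc1 (0.79) and Agap1 (0.78). For Neu3 they were Prdm15 (r = 0.78), Ppdpf (0.709), Gm16582 (0.695), Evi5l (0.673) and Ncdn (0.659). All 5 Neu3 companions were lower in run 2, by log2 differences from -1.09 to -1.86, although the run means had been removed before the ranking. Those of Neu1 had run differences from 0.183 (Mpc1, edgeR adjusted p = 0.443) to 1.77 (Agap1). Of all tested genes, 29.2% were called lower and 30.3% higher in run 2. For Neu2 they were Zc2hc1b (r = 0.728), Gm12202 (0.72), Lnx1 (0.696), Cacul1 (0.657) and Sntg2 (0.653), a ranking that rests on a gene with counts in 15 libraries. None of the lysosomal or sialic acid genes listed below was among these 15. So few genes out of 17409 would seldom hold a listed gene, so this absence shows no lack of relation.

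Genes that work beside the sialidases in lysosomes showed no call by genotype. Of 20 listed genes of lysosomal glycan breakdown, 19 were tested and 0 passed in any of the 7 genotype comparisons. At most 0.569% of all tested genes passed in any of these, so 0 calls are usual for lists of this size, here and below. Galns was listed at 0 and lies wholly within other genes. The median log2 difference of the list in Gne+/- against wildtype mice was -0.02 (9 positive and 10 negative), against 0.01 over all tested genes. Ctsa, which protects Neu1 in its complex, had -1.94 in that comparison (SE 0.952, unadjusted p = 0.0511, edgeR adjusted p = 0.86). Gla, which cleaves terminal galactose from glycolipids, had 0.88 (SE 0.345, unadjusted p = 0.0155, edgeR adjusted p = 0.849).

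Between the runs, 7 of these 19 genes were higher and 4 lower in run 2 (median log2 difference 0.31, against 0.04 over all tested genes). These counts, and those of the lists below, stand beside 30.3% of all tested genes higher and 29.2% lower. Whether reads of the 2 runs were trimmed and aligned alike is not given in the sources used here. Psap, the precursor of the saposins that present glycolipids to lysosomal enzymes, averaged 1.05 ± 0.628 CPM in run 1 (SD, n = 18) and 373 ± 106 CPM in run 2 (n = 9). Ctsa averaged 0.541 ± 0.788 and 10.5 ± 3.37 CPM, a log2 difference of 4.72, and other genes cover 25.7% of its span. Arsa, which removes sulfate from sulfatide, averaged 0.349 ± 0.544 and 7.73 ± 2.16 CPM. Also called higher were Gla (0.69), Asah1 (0.66) and Fuca1 (0.72 on the log2 scale). Those called lower included Glb1, the third partner of the Neu1 complex, at 34.1 ± 7.42 CPM in run 1 and 14.6 ± 4.6 CPM in run 2 (log2 difference -1.25), Galc (-1.69) and Naglu (-1.11). The cause of these run differences was not tested.

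**Figure D4:**
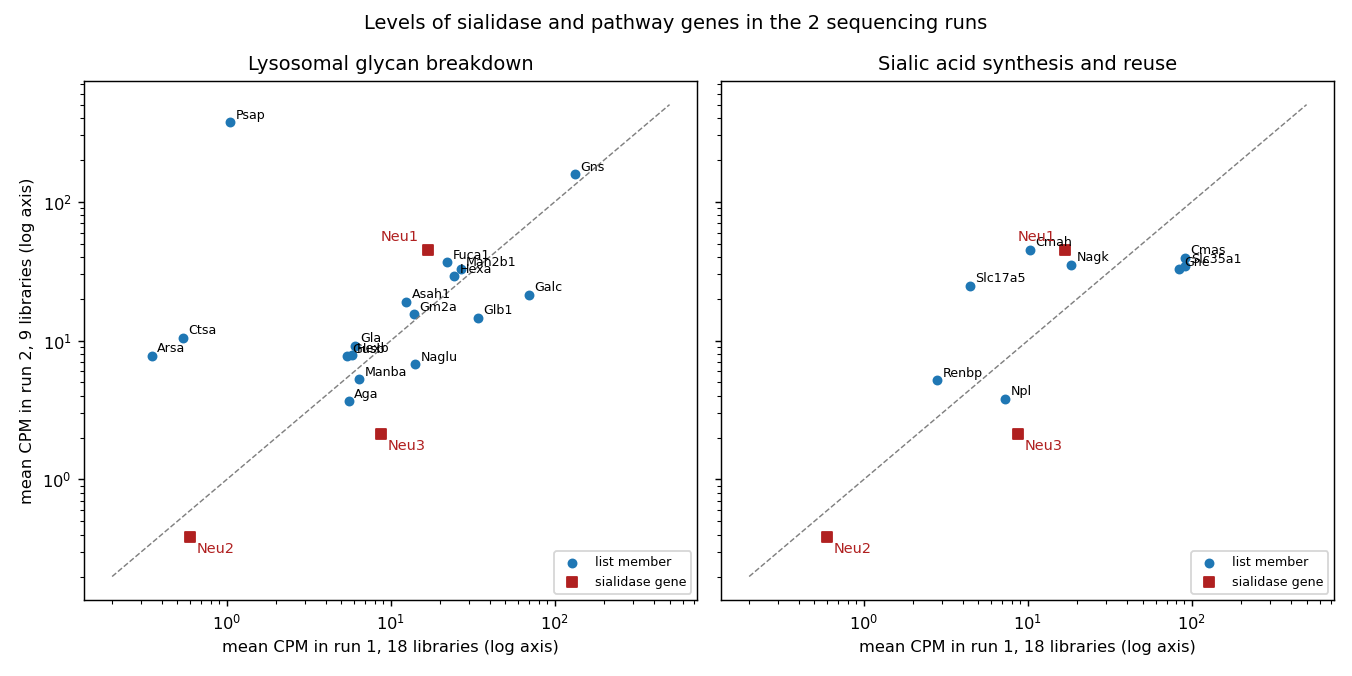
Mean CPM in run 1 (18 libraries, horizontal) and run 2 (9 libraries, vertical) on log axes, for genes of lysosomal glycan breakdown (left) and of sialic acid synthesis and reuse (right), with the tested sialidases as red squares. The dashed line marks equal levels. Neu1 lies above the line and Neu3 below it, and Psap lies farthest from it, at 1.05 and 373 CPM.

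The genes that make, activate and recover sialic acid likewise gave few calls: of 8 tested of 10 listed, Gne was called lower in each Gne comparison. Of the other 7, 0 were called in any genotype comparison, against at most 0.569% of all tested genes. Nans had 21 counts and Nanp 0, and other genes cover 68.5% and 99.8% of their spans. Between the runs, 4 were higher and 4 lower in run 2. Slc17a5, which carries freed sialic acid out of lysosomes, averaged 4.42 ± 1.94 CPM in run 1 (SD, n = 18) and 24.9 ± 3.16 CPM in run 2 (n = 9), a log2 difference of 2.52. Cmah, which converts the activated acetyl form of sialic acid to the glycolyl form, rose by 2.14 and Nagk, which phosphorylates N-acetylglucosamine, by 0.93 on the same scale. Renbp differed by 0.92. Slc35a1, which carries activated sialic acid into the Golgi, fell by 1.41, Cmas, which activates it, by 1.21, Gne by 1.48, and Npl, the lyase that degrades it, by 0.92.

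The transferases that oppose the sialidases gave 0 calls by genotype as well, where at most 0.569% of all tested genes were called. Of the ganglioside synthesis genes, which make the substrates of Neu3, 11 of 13 were tested. Their median log2 difference in Gne+/- against wildtype mice was 0.04 (6 positive, 5 negative). St3gal5, which makes the simplest ganglioside, had an averaged Gne effect of -0.33 (SE 0.115, unadjusted p = 0.00702, edgeR adjusted p = 1.0). Between the runs 2 of the 11 were higher, St3gal1 by 1.99 and B4galt6 by 1.85, and 4 were lower, B4galt5 (-1.02), St8sia1 (-0.99), St3gal5 (-0.63) and St6galnac6 (-0.47). All 12 listed sialyltransferases of glycoproteins were tested, with a median difference of 0.00 in Gne+/- against wildtype mice, and 7 were higher and 1 lower between the runs. St3gal3 rose by 1.49, St3gal4 by 1.54, St6gal1 by 1.10, St6galnac1 by 3.77, St6galnac2 by 4.25, St6galnac4 by 1.04 and St8sia2 by 1.19, and St3gal6 fell by 0.44. St6galnac1 averaged 0.0961 CPM in run 1 and 0.485 CPM in run 2, and St6galnac2 0.194 and 3.13 CPM. Both run 1 means lay within the 0.0878 to 0.222 CPM that a count of 0 allows in single libraries. Other genes cover 49.9% of the St6galnac2 span.

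Lysosome regulators and membrane proteins, and the receptors that read sialic acid, completed the lists. Of 10 tested regulators and membrane genes, 0 were called by genotype, against at most 0.569% of all tested genes. Between the runs, 4 were higher and 4 lower. Tfeb, a transcription factor for lysosomal genes, had -0.06 in Gne+/- against wildtype mice (SE 0.315, edgeR adjusted p = 0.989) and 1.16 between the runs. Cd63 (1.58), Atp6v0d1 (1.74) and Mitf (0.32) were the other 3 called higher, and Ctsb (-1.71), Mcoln1 (-0.96), Tfe3 (-0.61) and Lamp2 (-0.42) were called lower. Of 8 listed receptors of the Siglec family, 4 were tested, with 0 called by genotype and Siglecf lower in run 2 (log2 difference -2.95, mean 0.675 CPM in run 1 and 0.0715 CPM in run 2). Microglia carry many Siglecs, and the summed level of 11 microglia markers, of which P2ry12 is at 0 and lies wholly within other genes, was 26.9 to 84.7 CPM in run 1 and 25.1 to 34.3 CPM in run 2.

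The chromosomal surroundings of the 4 genes were read for changes by genotype, counting tested genes within 1 Mb of each. Around Neu1 there were 89, around Neu2 21, around Neu3 33 and around Neu4 18. None of those around Neu1, Neu2 and Neu4 was called in any of the 7 genotype comparisons, where at most 0.569% of all tested genes were called. Neu1 lies on the chromosome of C3, 22.3 Mb away. The nearest tested gene before Neu1, Slc44a4 (chr17:34914466-34930436, same strand), had a log2 C3 effect of 0.42 (SE 0.941), and 1110038B12Rik on the other side had -0.12 (SE 0.341). Beside Neu2, Gigyf2 had -0.01 (SE 0.0825) and Inpp5d 0.18 (SE 0.579). D2hgdh, the nearest tested gene to Neu4 on its lower side, had -0.27 (SE 0.187).

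Around Neu3, 3 of 33 tested genes (9.09%) were called in the averaged C3 effect, against 0.569% of all tested genes. Rab6a, a GTPase of Golgi traffic 779 kb from Neu3, was higher by 0.92 on the log2 scale in mice without C3 (SE 0.105, edgeR adjusted p = 8.57e-07). In run 1 wildtype libraries lay at 151 to 234 CPM and C3-/- libraries at 304 to 548 CPM, and 115 to 177 and 159 to 212 CPM in run 2. Pgm2l1, 399 kb away, was higher by 0.59 (SE 0.121, edgeR adjusted p = 0.00654), with 230 to 352 CPM in wildtype and 352 to 528 CPM in C3-/- libraries of run 1, while in run 2 the ranges overlapped, at 75.8 to 138 and 117 to 155 CPM. Gm39059, an unnamed gene model 714 kb away, differed by -4.41 (SE 0.831, edgeR adjusted p = 0.00261), with wildtype libraries of run 1 averaging 1.41 CPM and C3-/- libraries 0.0745 CPM. All 3 lie on the same side of Neu3. The nearest tested genes, Spcs2 at 9 kb and Slco2b1 on the other side, had 0.02 (SE 0.0882) and 0.68 (SE 0.525) and were not called. Neu3 itself had -0.03 (SE 0.3).

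**Figure D5:**
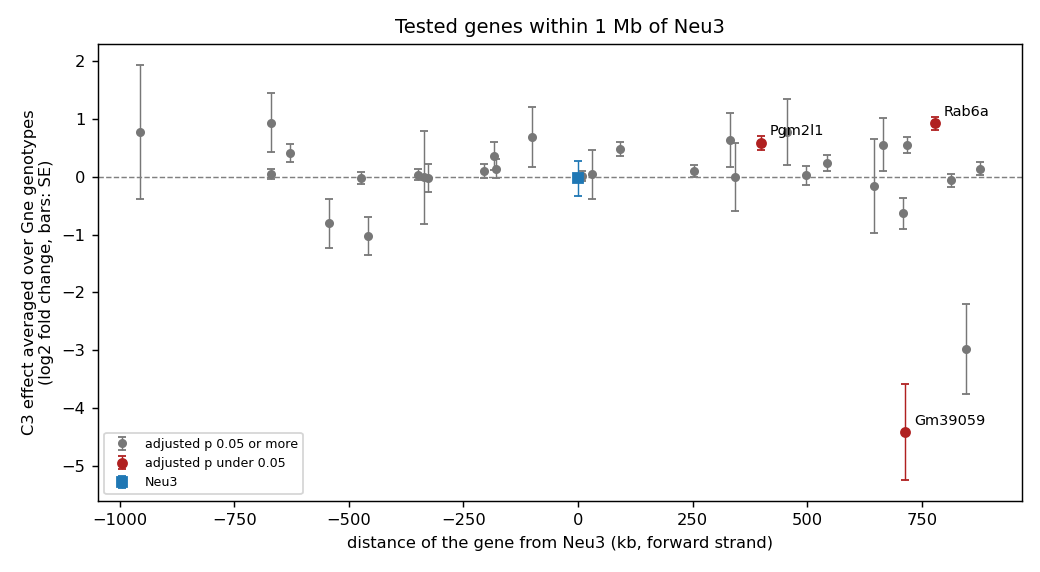
Averaged C3 effect (log2 fold change, bars are SE) of the 33 tested genes within 1 Mb of Neu3 by their distance in kb along the forward strand, with Neu3 as a blue square at 0. Red points passed the edgeR threshold. Rab6a and Pgm2l1 lie above 0 and Gm39059 below it, at 779, 399 and 714 kb, while Neu3 and its nearest neighbour Spcs2 lie at -0.03 and 0.02.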

How the data were processed

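The authors deposited unnormalized read counts, with 1 column per library and 1 row per gene. Reads were aligned with STAR 2.7.3a to GRCm38, per the submitters' processing notes, and counted with featureCounts 2.0.3 over exon and gene features of Ensembl release 101, per the file headers, so intronic reads count. No strand or multi-overlap option was set, so reads shared by overlapping genes were left out. All 27 single-library files equalled the series table. Genes passing filterByExpr by group (minimum count 10; 17409 genes) were fitted with edgeR 4.0.16 in R 4.3.3 (TMM, robust quasi-likelihood, genotype group plus run, 22 residual degrees of freedom, Benjamini-Hochberg over all tested genes, threshold 0.05). The fit was tested on simulated data. Levels are CPM on TMM-scaled library sizes. Alternatives used DESeq2 1.42.0, limma-voom (limma 3.58.1), other factors and filters, and fewer libraries.

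The members and lists were chosen with earlier results of these data known. Named were the members, Gne and C3, list members past the threshold or with small p, called or nearest genes within 1 Mb, and the 5 genes most alike each member. A few genes that fall under it are not reported here. Labels name a separate mouse per library, but litter and extraction day are not given in the sources used here, and p-values measure the spread between these libraries. The reads carry no molecular identifiers, so intervals on counts cover counting error only.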

Additional observations from a re-analysis of the deposited data

Results flagged for a closer look

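Among 11 groups of 4 or 5 run 1 libraries (Neu1, Neu2 and Neu3 by genotype) tested for a library far from the rest, 2 held one, where chance alone gives about 1 in 20 groups. Both were the same animal, Gne+/- mouse 5 of run 1. Its Neu1 level, 7.26 CPM, lay below the other 4 Gne+/- libraries of that run by 0.797 of the group's whole range (critical value 0.71 for 5 libraries). Its Neu3 level, 20.4 CPM, lay above the other 4 by 0.711 of the range, just past the same critical value. The test used CPM without logs, and a value this near the limit may depend on that scale. Neu1 and Neu3 had a Pearson r of -0.497 in run 1, so the 2 results from this mouse are not independent. Without this mouse the Neu1 difference between Gne+/- and wildtype was 0.53 on the log2 scale (edgeR adjusted p = 0.307), and that of Neu3 was -0.37.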

How the results depend on the processing

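No alternative gave a sialidase call in a genotype comparison. Over 11 alternatives other than leaving out single libraries, 201 of 231 genotype values kept their sign and 30 reversed, 0 of them past the threshold. The smallest adjusted p over all settings was 0.307 for Neu1 (without Gne+/- mouse 5), 0.186 for Neu2 (run 1 alone, averaged C3 effect) and 0.714 for Neu3. The run difference of Neu1 and Neu3 passed under every alternative that allows it. For Neu1, the C3-/- against wildtype difference was -0.33 in run 2 alone, and the averaged C3 effect was 0.18 in run 1 alone. For Neu3 in run 1 alone, Gne+/- against wildtype gave 0.38, C3-/- against wildtype 0.0071, the double mutant against Gne+/- -0.22 and the interaction -0.23, while run 2 alone gave averaged Gne and C3 effects of -0.25 and 0.27. With limma-voom, Neu3 gave 0.18 for Gne+/- against wildtype, -0.21 for Gne+/- C3-/- against Gne+/- and -0.11 (interaction), and with no run term 0.24 and -0.17 in the first and second of these. The cause of these reversals was not tested.

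Fitted values of Neu2 rest on groups at 0, so those below are listed for their sign only and are neither sizes nor bounds. In run 1 alone it gave -5.67 (Gne+/- against wildtype), -3.10 (averaged Gne effect) and 5.13 (interaction), and in run 2 alone 0.75 (Gne+/- C3-/- against C3-/-) and -2.01 (Gne+/- C3-/- against Gne+/-). With the Y-linked level as covariate it gave -1.43, 0.044, -0.097, -0.69 and 1.48 (Gne+/- against wildtype, Gne+/- C3-/- against C3-/-, C3-/- against wildtype, averaged Gne effect, interaction), and with limma-voom 1.03 and 1.02 (Gne+/- C3-/- against C3-/-, interaction).

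Correlations of deviations did not show that the mouse numbers in the labels pair the samples. Of 31 same-numbered pairs, 4 had a correlation over 0.1 (range -0.16 to 0.256). The median was -0.0421, against -0.0302 for 120 pairs with other numbers in the same run. Of 26 samples, 10 correlated best with their own number, a count for which no chance rate was computed. With the replicate block (mouse number in place of run), the averaged C3 effect on Neu1 was 0.081, Neu2 gave 1.10 (Gne+/- C3-/- against C3-/-) and 0.23 (interaction), Neu3 gave 0.22 (Gne+/- against wildtype) and -0.13 (Gne+/- C3-/- against Gne+/-), and the block added no genotype call.

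Leaving out 1 library at a time, 38 of 567 values reversed, 0 past the threshold. Neu1 then ranged from -0.11 to 0.0080 (averaged C3 effect) and -0.19 to 0.016 (Gne+/- C3-/- against C3-/-). Neu3 ranged from -0.37 to 0.14 (Gne+/- against wildtype), -0.075 to 0.49 (Gne+/- C3-/- against Gne+/-), -0.038 to 0.26 (averaged Gne effect) and -0.14 to 0.15 (averaged C3 effect). Neu2 ranged from -0.092 to 2.05 (Gne+/- against wildtype), -0.68 to 0.79 (Gne+/- C3-/- against C3-/-), -0.024 to 1.5 (Gne+/- C3-/- against Gne+/-), -0.15 to 0.91 (averaged Gne effect), -2.29 to 0.45 (interaction) and -1.0 to 0.15 (run difference). On raw library totals in place of TMM-scaled ones, mean Neu1 in run 2 was 52.7 CPM in wildtype and 41.6 CPM in Gne+/- C3-/- mice. Depth limits Neu2 and Neu4.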
